A study of Mus musculus with 18 samples.

Results

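The erbB2-positive fraction of a 1:1 co-culture of mouse mammary cells was compared with the Comma-D line, on whole-transcript gene arrays. The 2 groups were taken from the sample titles, and they make up 6 of the 18 arrays of the study, 3 in each group. Comma-D is a mammary epithelial line derived from normal mouse tissue, and MMTV-neu is a line from a mammary tumour in which the MMTV promoter drives the neu (erbB2) oncogene in mammary epithelium. For the 1:1 group, Comma-D and MMTV-neu cells were grown together in the Comma-D medium, which is DMEM/F12 with low serum, HEPES, insulin and EGF. The detached cells were bound with an antibody to erbB2 and magnetic beads, and the retained cells form the erbB2-positive fraction, which the labels call cancer, erbB2-positive and positive for phosphorylated erbB2. The reference is unmixed Comma-D in the same medium, which the labels call normal, erbB2-negative and negative for phosphorylated erbB2. Growth medium therefore does not differ between these 2 groups, whereas co-culture, cell identity and selection on erbB2 do. The protocol text is shared by every sample, so whether unmixed Comma-D cells also went through the column is not clear from it. The other groups used below are the erbB2-negative fraction of the same 1:1 co-culture, the erbB2-positive fraction of a 1:50 co-culture, and unmixed MMTV-neu, which was grown in DMEM with more serum. The titles and protocols do not settle which line made up the 50 parts. The labels do not say that replicates came from separate cultures, so the p-values measure the spread between these samples, which may be technical.

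ErbB2 is a receptor tyrosine kinase without a ligand of its own that signals as a partner of EGFR, ErbB3 and ErbB4 into the RAS-ERK and PI3K-AKT pathways, and its overexpression drives a class of breast cancers. The mammary duct has an inner luminal layer, marked by Krt8 and Krt18, and an outer basal or myoepithelial layer, marked by Krt5, Krt14 and contractile proteins. Tumours of MMTV-neu mice are known for a luminal character, whereas Comma-D is known to hold a mixture of luminal, basal and progenitor-like cells.

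A gene's level is the deposited log2 value of 1 probe set, and each difference below is the 1:1 erbB2-positive fraction minus Comma-D on the log2 scale unless another comparison is named. Of the 19938 genes, 15615 passed limma's test with a Benjamini-Hochberg adjusted p below 0.05, which is 78.3%, with 9140 (45.8%) higher and 6475 (32.5%) lower. Most of the called rises were small and many of the falls were large. A rise of at least 1 log2 unit was called for 1957 genes (9.82%) and a fall of that size for 3657 (18.3%), and for at least 2 log2 units the numbers were 24 (0.12%) and 845 (4.24%). The arrays of the 2 groups did not overlap for 16962 genes, or 85.1%, so neither a call nor a lack of overlap sets a gene apart here. The spread of values within an array was narrower in the fraction, with standard deviations of 1.61, 1.66 and 1.71 over probe sets, against 1.98, 1.97 and 1.99 in Comma-D. The difference also followed the level of a gene in Comma-D, by which the genes were ranked into 4 level classes of equal size. The same Comma-D means are subtracted in each difference, so level and difference are not independent. The part of this shared term in the gradient was not tested. In the lowest class the median difference was 0.35 and 66.6% of genes were called higher, in the next 0.73 and 81.5%, and in the third -0.11, with 30.8% higher and 39.4% lower. In the highest class the median was -1.23, with 4.55% of genes higher and 85.3% lower. Quantile normalization brought these 4 medians to 0.04, 0.25, 0.08 and -0.44, and centring on reference genes to 1.49, 1.87, 1.03 and -0.09. The part of array compression in the difference of a single gene was not tested. Where members of a gene group lie in the highest class, the larger groups below are set beside all genes of that class on the deposited values. Over the 2 lower classes together the median was 0.50 and 74% of genes were higher.

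**Figure D1:**
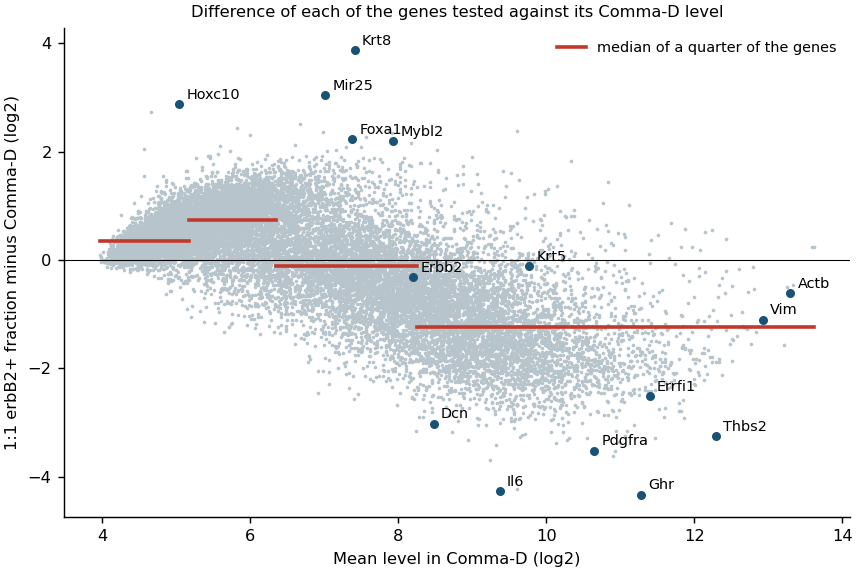
Difference of each gene, 1:1 erbB2-positive fraction minus Comma-D (log2, vertical axis), against its mean Comma-D level (log2, horizontal axis), with 1 grey point per gene, genes discussed in the text in blue and the median of each level class as a red line. The medians run 0.35, 0.73, -0.11 and -1.23 from the lowest to the highest class, with Krt8 far above and Ghr and Il6 far below.

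The fraction lay nearer to MMTV-neu than to Comma-D. On an axis set to 0% at the Comma-D mean and 100% at the MMTV-neu mean, over the 1641 genes that differ between those lines by at least 2 log2 units, its 3 arrays lay at 80.5%, 66.7% and 61%. The erbB2-negative fraction of the same co-cultures lay at 42.2%, 19.3% and 16.6%, and the 1:50 erbB2-positive fraction at 23%, 7.2% and 12.7%. The 1:1 erbB2-positive arrays thus lay above all arrays of the other fractions, with a mean of 69.4% ± 10, against 26% ± 14 for the erbB2-negative fraction (SD, n = 3 each, two-sided exact permutation p = 0.1, the smallest that 3 against 3 arrays allow). Paired by replicate number, a comparison added after the data were seen, the fraction was higher by 38.3, 47.4 and 44.3 percentage points, with a two-sided exact sign-flip permutation p = 0.25, the smallest that 3 pairs allow. Of the 1641 genes 80 (0.401% of all genes) are higher in MMTV-neu and 1561 (7.83%) are lower, so the axis mainly reads how far transcripts abundant in Comma-D were reduced. Over the 80 higher genes alone the arrays lay at 90.1%, 84% and 77.9% in the fraction and at 67.8%, 42.5% and 35.9% in the erbB2-negative fraction. Pearson's r across genes, which are not independent replicates, was 0.9295 to 0.964 between the fraction and MMTV-neu arrays and 0.8122 to 0.8963 between the fraction and Comma-D arrays. The standard deviation of values within an array was 1.51 to 1.55 in MMTV-neu and 1.61 to 1.71 in the fraction. It was 1.75 to 1.91 in the erbB2-negative fraction, 1.85 to 1.96 in the 1:50 erbB2-positive fraction and 1.97 to 1.99 in Comma-D. The part of array compression in these positions and correlations was not tested. In these bulk samples fewer cells of a type and less RNA per cell cannot be told apart, and neither can RNA of Comma-D cells within the fraction and expression of the same genes by its tumour-derived cells.

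**Figure D2:**
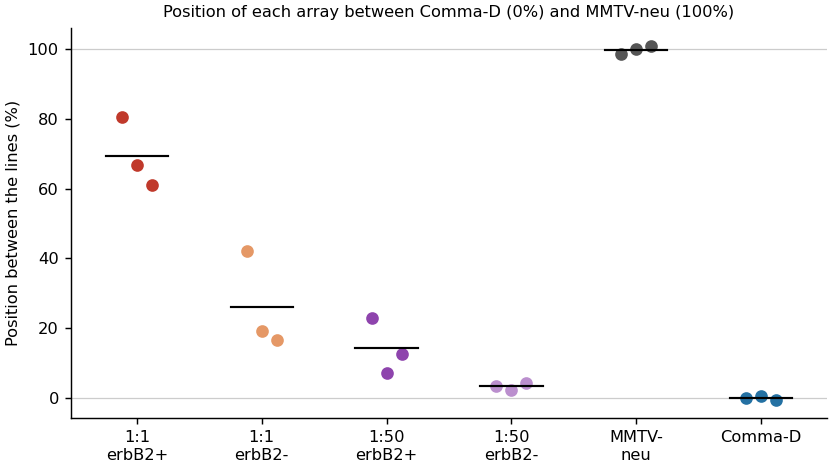
Position of each of the 18 arrays on the axis between the unmixed lines (percent, vertical axis), by group, with points for arrays and a bar for the group mean. The 1:1 erbB2-positive arrays lie at 61% to 80.5%, above the 16.6% to 42.2% of the 1:1 erbB2-negative arrays.

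Erbb2 (probe set 10380896), the gene of the sorted antigen, had levels of 7.87, 7.83 and 7.92 in the 1:1 erbB2-positive fraction, against 8.15, 8.32 and 8.12 in Comma-D. The groups did not overlap and the fraction was the lower one, opposite to its label, with a difference of -0.32 (SE 0.10, limma adjusted p = 0.006), although the sign turned to 0.81 with arrays centred on reference genes and to 0.32 after quantile normalization. Between the erbB2-positive and erbB2-negative fractions of the 1:1 co-culture Erbb2 differed by 0.08 (95% interval -0.13 to 0.28, adjusted p = 0.513). The array therefore did not separate the sorted fractions by the mouse Erbb2 transcript, and how well its probes read the neu transgene was not tested. Erbb3, the kinase-impaired partner that carries ErbB2 signals to PI3K, fell by 1.15 (SE 0.17), a call that was lost with centring, at -0.01. Egfr had levels of 7.15, 6.77 and 6.71 in the fraction, against 8.31, 8.37 and 8.39 in Comma-D, and fell by 1.48 (SE 0.22, adjusted p = 1.29e-05), or by 0.34, which was not called, with centring. It was also lower in the fraction than in the erbB2-negative cells of the same dish, by -1.07 (SE 0.22).

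Feedback genes of ERBB and ERK signalling moved in both directions. Dusp6, a phosphatase that inactivates ERK, had levels of 7.62, 7.81 and 7.78 in the fraction, against 10.60, 10.53 and 10.65 in Comma-D, and Errfi1, an inhibitor that binds the kinase domain of ERBB receptors, had 8.75, 8.93 and 8.99 against 11.37, 11.39 and 11.44. Both were far apart between the groups, with differences of -2.85 (SE 0.19, adjusted p = 1.00e-08) and -2.51 (SE 0.13, adjusted p = 9.12e-10). Shc1, an adaptor that couples receptors to RAS, fell by 2.25 (SE 0.21), the RAS pathway inhibitor Spred1 by 2.05 (SE 0.20) and the feedback inhibitor Spry1 by 1.54 (SE 0.17), the last not called with centring at -0.40. In the other direction, Spry4, a relative of Spry1, rose by 0.77 (SE 0.13) and Dusp5, another phosphatase of ERK, by 0.92 (SE 0.17). Set against the erbB2-negative fraction, Dusp6 differed by -1.59 and Errfi1 by -1.30, whereas Spry1 was not called (-0.25, SE 0.17). Of the 27 measured receptors, ligands and feedback genes of this pathway, 15 fell and 9 rose, with a median of -0.43 that centring turned to 0.71 and quantile normalization left at -0.33. The 12 members in the highest Comma-D class all fell, with a median of -1.50 beside -1.23 for all genes of that class.

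The largest rise of all genes was that of Krt8 (probe set 10432918), a keratin of simple and luminal epithelium. Its levels were 11.28, 11.35 and 11.22 in the 1:1 erbB2-positive fraction, against 7.38, 7.70 and 7.15 in Comma-D. The 6 arrays form 2 tight groups that differ by 3.87 (SE 0.19, adjusted p = 8.51e-10), a 14.7-fold difference in signal. MMTV-neu averaged 11.34, and the fraction differed from it by -0.05 (95% interval -0.45 to 0.35). Krt18, the partner with which Krt8 forms filaments, did not move with it: its levels of 8.41, 8.47 and 8.61 lay below the 9.31, 9.37 and 9.35 of Comma-D, a difference of -0.85 (SE 0.10) that turned to 0.29 with centring and 0.11 after quantile normalization. Krt19, another luminal keratin, rose by 1.16 (SE 0.14).

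Other luminal genes moved in both directions. Foxa1, a pioneer factor that opens chromatin for the oestrogen receptor, had levels of 9.58, 9.64 and 9.60 in the fraction, against 7.20, 7.70 and 7.23 in Comma-D, and rose by 2.23 (SE 0.21, adjusted p = 2.54e-07). Epcam, an epithelial adhesion molecule, had levels of 5.97, 6.93 and 7.61, against 9.57, 9.56 and 9.45, and fell by 2.69 (SE 0.39). Its arrays did not overlap between the groups, but they spread widely within the fraction. Cdh1, which encodes E-cadherin, fell by 1.84 (SE 0.26), the ETS factor Ehf by 2.68 (SE 0.22) and Kit, the receptor of luminal progenitors, by 2.42 (SE 0.25). Of 26 luminal markers 12 rose and 10 fell, with a median of 0.19 (1.33 centred and 0.29 after quantile normalization) equal to that of all genes. The 8 in the highest Comma-D class all fell, with a median of -1.73. Of 27 desmosome and tight junction genes 8 rose and 14 fell (median -0.30, or 0.84 with centring and -0.25 after quantile normalization), among them Dsg3, a desmosomal cadherin, by 2.86 (SE 0.41) and the scaffold Tjp1 by 2.33 (SE 0.23).

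The basal keratins were retained to different degrees. Krt5 had levels of 9.55, 10.28 and 9.17 in the fraction, against 9.73, 9.87 and 9.72 in Comma-D, and these arrays overlapped, with a difference of -0.11 (95% interval -0.65 to 0.44, adjusted p = 0.712) that turned to 1.03 with centring and 0.92 after quantile normalization. Krt14, its filament partner, had 9.42, 9.93 and 9.74 against 10.99, 10.99 and 10.96, and fell by 1.28 (SE 0.15), a call lost with either scaling. Both were lower in the erbB2-positive than in the erbB2-negative cells of the same co-culture, Krt5 by -1.34 (SE 0.26) and Krt14 by -1.29 (SE 0.15). Trp63, the transcription factor that maintains basal cells, was not called (-0.01, 95% interval -0.81 to 0.78), although it differed by 1.12 with centring and 0.72 after quantile normalization, and the smooth muscle actin Acta2 fell by 0.92 (SE 0.22), or differed by 0.22 with centring, and was not called after quantile normalization at -0.23. The basal integrin subunits Itgb1 and Itga6 fell by 2.05 (SE 0.23) and 1.98 (SE 0.25), and the contractile regulator Cnn1 by 1.67 (SE 0.35), or by 0.81, which was not called, after quantile normalization. Altogether 18 of 28 basal and myoepithelial markers fell and 3 rose, with a median of -0.85 that centring turned to 0.29 and quantile normalization left at -0.21. The 20 of them in the highest Comma-D class had a median of -1.17, beside -1.23 for all genes there.

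Position genes of the Hox clusters went up almost together. Hoxc10 (probe set 10427280), a posterior homeobox factor, had levels of 8.25, 7.71 and 7.80 in the fraction, against 4.90, 5.09 and 5.14 in Comma-D. It rose by 2.88 (SE 0.23, adjusted p = 4.80e-08), with a Comma-D level under the array medians. The fraction stood 1.36 (SE 0.23) above the erbB2-negative fraction and 0.82 (SE 0.23) below MMTV-neu, which averaged 8.74. The same cluster gave Hoxc6 with 7.39, 7.22 and 6.86 against 5.19, 5.26 and 5.37, a rise of 1.88 (SE 0.18), as well as Hoxc8 with a rise of 1.50 (SE 0.23) and Hoxc5 with 1.46 (SE 0.17). In the B cluster Hoxb7 rose by 1.69 (SE 0.15). Of 37 Hox genes measured 33 rose and 1 fell, with a median of 0.87 (2.01 centred and 0.48 after quantile normalization). The 29 members in the 2 lower Comma-D classes all rose with a median of 0.87, beside 0.50 and 74% called higher for all genes there. Of these members 10 lie in the lowest class, where all genes had a median of 0.35 and 66.6% were called higher. The others lie in the next class, with 0.73 and 81.5%. Hoxb2, named because it was the only one to fall, differed by -0.50 (SE 0.13), a sign that turned to 0.64 with centring and 0.12 after quantile normalization.

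**Figure D3:**
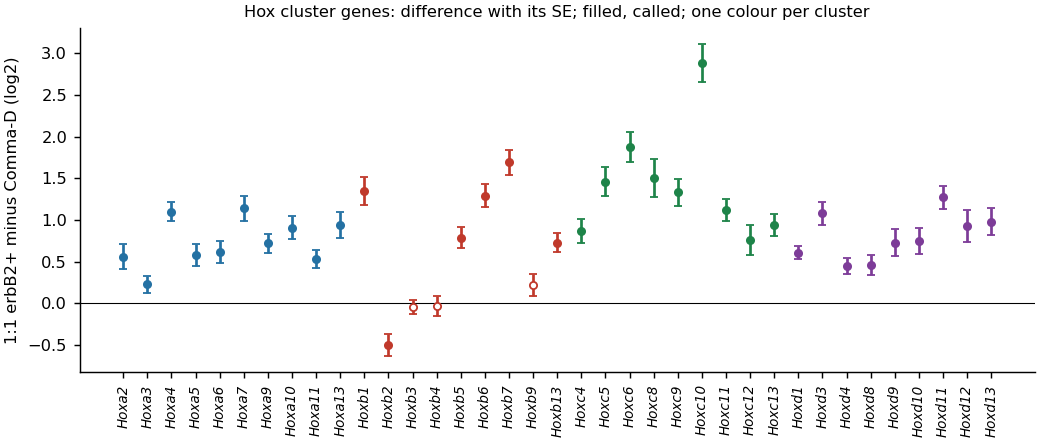
Difference of each of the 37 measured Hox genes, 1:1 erbB2-positive fraction minus Comma-D (log2, vertical axis), with its SE, in the order of the 4 clusters, each in its own colour, and open points for genes not called at an adjusted p under 0.05. Hoxc10 stands highest at 2.88, and Hoxb2 at -0.50 is the only called fall.

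Other regulators rose with them. Mybl2, a transcription factor of proliferating cells, had levels of 10.00, 10.12 and 10.25 in the fraction, against 7.65, 8.18 and 7.97 in Comma-D, and rose by 2.19 (SE 0.20, adjusted p = 1.49e-07). The chromatin remodeller Chd7 rose by 2.17 (SE 0.22), the retinoic acid carrier Crabp1 by 2.13 (SE 0.21) and Nova1, a splicing regulator known from neurons, by 2.10 (SE 0.19). None of these 4 was called between the fraction and MMTV-neu, where the differences were -0.22, -0.20, -0.23 and -0.30. That does not set them apart, since 23 of the 24 genes at least 2 log2 units above Comma-D were not called there. Over all genes 18.3% were called in that comparison.

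Among the 24 genes that rose by at least 2 log2 units were the microRNA genes Mir25, Mir421 and Mir32. MicroRNAs bind messenger RNAs mainly through bases 2 to 8, the seed, and members with 1 seed share many predicted targets. The probes read the hairpin or its precursor transcript, so the values are not levels of the mature forms. Mir25, Mir93 and Mir106b lie together on the minus strand of chromosome 5 inside the host gene Mcm7, and the mature forms below are shown because their genes rose and fall into 2 seed families. The sequences and coordinates are those of RefSeq on GRCm38.p6, 5′ to 3′, with the seed in capitals, and the last 2 come from genes that fell. All genes of this group except Mir25 and Mir421 were chosen after their values were seen.
miR-25-3p: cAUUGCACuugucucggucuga
miR-32-5p: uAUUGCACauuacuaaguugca
miR-92b-3p: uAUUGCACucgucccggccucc
miR-106b-5p: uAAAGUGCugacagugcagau
miR-93-5p: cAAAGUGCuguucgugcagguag
miR-27a-3p: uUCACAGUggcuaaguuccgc
miR-23a-3p: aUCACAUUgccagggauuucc

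The mature form of miR-25-3p lies at chr5:138165332-138165353, that of miR-93-5p at chr5:138165574-138165596 and that of miR-106b-5p at chr5:138165787-138165807. Mir25 (probe set 10534984) had levels of 10.18, 10.06 and 9.91 in the fraction, against 6.77 to 7.27 over the 3 Comma-D arrays, and rose by 3.04 (SE 0.28, adjusted p = 1.60e-07), an 8.21-fold difference. Mir106b had 7.68, 7.70 and 7.19 against 5.80, 5.65 and 5.25, and Mir93 averaged 7.48 ± 0.45 in the fraction against 6.02 ± 0.08 in Comma-D (SD, n = 3 each), with rises of 1.95 (SE 0.22) and 1.47 (SE 0.20). In all 3 hairpins every array of the fraction lay above every Comma-D array. Their host Mcm7, a helicase subunit of DNA replication, went the other way at -0.69 (SE 0.26, adjusted p = 0.024), a call that was lost without any 1 of 4 arrays (replicate 2 or 3 of either group) and a sign that turned to 0.45 with centring and 0.20 after quantile normalization.

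The seed AUUGCAC of miR-25 is shared by 6 measured genes, of which 4 rose and 0 fell. Mir32, at chr4:56895272-56895293 on the minus strand, rose by 2.05 (SE 0.33), and Mir92b, at chr3:89227126-89227147 on the minus strand, by 1.23 (SE 0.22). The seed AAAGUGC of miR-106b is also shared by 6 genes, of which only Mir106b and Mir93 were called and the other 4 differed by at most 0.15. Mir421, on the X chromosome, had levels of 7.99, 7.15 and 7.04 against 4.44, 4.70 and 4.86, a rise of 2.73 (SE 0.40). Of 301 microRNA genes 166 (55.1%) rose and 20 (6.64%) fell, with a median of 0.34 beside 0.19 for all genes. Falls were fewer. Mir27a and Mir23a, neighbours at chr8:84208727-84208747 and chr8:84208563-84208583 on the plus strand, fell by 1.70 (SE 0.23) and 1.30 (SE 0.22), the second not called with either scaling, and Mir145a, a microRNA of smooth muscle and mesenchymal cells, fell by 2.17 (SE 0.19). Mir27a and Mir23a were not called between the 1:1 fractions, at -0.26 (SE 0.23) and -0.06 (SE 0.22).

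The largest fall was that of Ghr (probe set 10427402), the growth hormone receptor. Its levels were 6.77, 7.06 and 7.02 in the 1:1 erbB2-positive fraction, against 11.34, 11.25 and 11.26 in Comma-D, a difference of -4.33 (SE 0.18, adjusted p = 1.57e-10) or a 20.1-fold lower signal. Il6, an inflammatory cytokine, had 5.37, 4.96 and 4.97 against 9.50, 9.35 and 9.26, a difference of -4.27 (SE 0.30), with a level in the fraction under the array medians. Both groups were tight for both genes, with no overlap. Zfp971, a zinc finger gene, fell by 4.23 (SE 0.36), the complement protease C1s1 by 3.70 (SE 0.40), Casp12, a caspase of the endoplasmic reticulum, by 3.42 (SE 0.28), the membrane glutathione transferase Mgst1 by 3.29 (SE 0.20) and the heparan sulfate proteoglycan Sdc2 by 3.28 (SE 0.28).

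The insulin-like growth factor axis fell with Ghr. Igf2, the fetal growth factor, had levels of 7.49, 7.21 and 7.39 in the fraction, against 9.79, 9.90 and 10.22 in Comma-D, and Insr, the insulin receptor, had 6.66, 6.89 and 6.75 against 9.30, 9.43 and 9.46. The groups were far apart for both, with differences of -2.60 (SE 0.14) and -2.63 (SE 0.16). Igf1 fell by 1.56 (SE 0.18), the clearance receptor Igf2r by 2.08 (SE 0.22) and the binding protein Igfbp4 by 2.12 (SE 0.37). The call of Igf1 was lost with centring (-0.42) and that of Igfbp4 after quantile normalization (-1.09). Of 13 members 11 fell and 1 rose, with a median of -1.50 that stayed negative at -0.36 with centring and -0.52 after quantile normalization. The 9 members in the highest Comma-D class all fell, with a median of -1.55 beside -1.23 for that class. All genes of that class also kept a negative median, at -0.09 with centring and -0.44 after quantile normalization.

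Mesenchymal and matrix genes fell broadly, although unevenly. Pdgfra, a receptor of mesenchymal cells, had levels of 7.49, 7.28 and 6.63 in the fraction, against 10.61, 10.58 and 10.77 in Comma-D, and fell by 3.52 (SE 0.35). Thbs2, a matricellular thrombospondin, had 9.45, 9.18 and 8.48 against 12.29, 12.26 and 12.33, and fell by 3.25 (SE 0.34). No array of the fraction reached the Comma-D range for either gene. Lox, which cross-links collagen, fell by 2.79 (SE 0.26), the mesenchymal homeobox factor Prrx1 by 2.78 (SE 0.21), the gelatinase Mmp2 by 2.48 (SE 0.13), Col12a1 by 2.40 (SE 0.29), the elastic fibre protein Fbln5 by 2.36 (SE 0.23) and Ccn1, a matricellular target of YAP, by 2.28 (SE 0.16). Of 26 mesenchymal transition genes 18 fell and 2 rose (median -1.14, or 0.00 centred and -0.65 after quantile normalization). Of 29 collagen and matrix genes 19 fell and 2 rose, with a median of -0.97 that centring turned to 0.17 and quantile normalization left at -0.38. Members in the highest Comma-D class had medians of -1.64 (16 genes) and -1.46 (18 genes), beside -1.23.

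Some abundant transcripts stood between the means of the unmixed lines, a position shared by many other genes. Of the 93 genes called at least 2 log2 units above MMTV-neu, 92 were also called below Comma-D. Among the 845 called at least 2 log2 units below Comma-D, 351 were also called above MMTV-neu. Vim, the intermediate filament vimentin, had levels of 11.16, 12.05 and 12.27 in the fraction, against 12.93, 12.93 and 12.95 in Comma-D and a mean of 8.13 in MMTV-neu. It fell by 1.10 (SE 0.21), or differed by 0.04 with centring, and stood 3.70 (SE 0.21) above MMTV-neu. The matrix protein gene Postn had 9.66, 10.91 and 10.78 against 12.27, 12.21 and 12.23, a difference of -1.79 (SE 0.29), and stood 4.03 (SE 0.29) above MMTV-neu, which averaged 6.41. For both genes replicate 1 of the fraction, the array nearest to MMTV-neu on the axis above, was the lowest. Actb, a cytoskeletal actin, fell by 0.61 (SE 0.15), or differed by 0.53 with centring, and stood 3.33 (SE 0.15) above MMTV-neu, whereas Eef1a1, a translation elongation factor, fell by 0.46 (SE 0.10), or differed by 0.68 with centring, and stood 0.49 (SE 0.10) above MMTV-neu. Neither was called after quantile normalization, at -0.22 and -0.11.

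**Figure D4:**
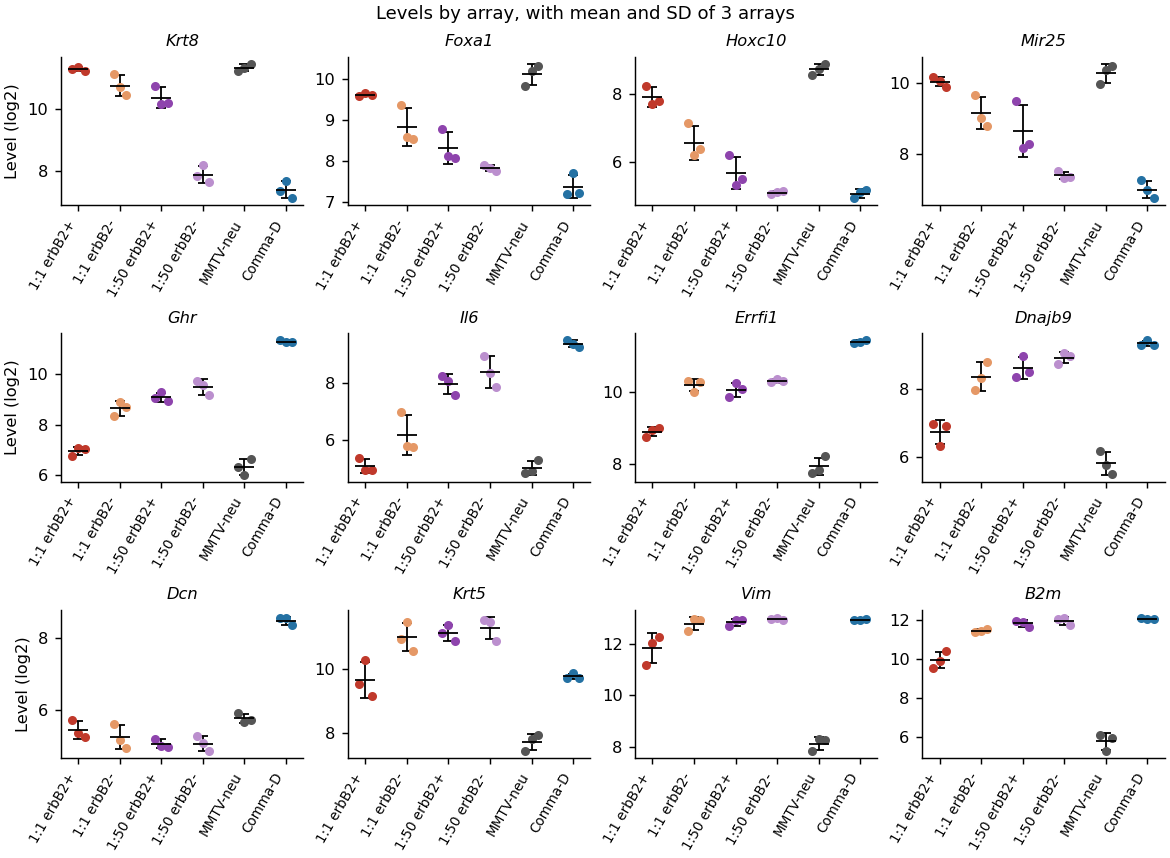
Levels (log2, vertical axes) of 12 genes on every array, by group, with points for arrays, a bar for the mean and whiskers for the SD of 3 arrays. Krt8, Foxa1, Hoxc10 and Mir25 are high in the 1:1 erbB2-positive fraction and low in Comma-D, Dcn is low in all co-culture fractions, and Vim and B2m remain far above MMTV-neu.

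Chaperones and enzymes induced by unfolded proteins or by lack of amino acids were lower with few exceptions. Hspa5, the main chaperone of the endoplasmic reticulum, had levels of 9.24, 9.77 and 10.43 in the fraction, against 11.99, 11.99 and 12.02 in Comma-D, and fell by 2.19 (SE 0.27, adjusted p = 2.31e-06). Dnajb9, one of its co-chaperones, had 6.97, 6.33 and 6.93 against 9.33, 9.46 and 9.32, and fell by 2.63 (SE 0.22). The groups did not overlap for either gene, and the fraction varied more than Comma-D. Psat1, an enzyme of serine synthesis, fell by 2.29 (SE 0.34) and the protein disulfide isomerase Pdia4 by 2.13 (SE 0.27). Of 30 members 28 fell and 0 rose, with a median of -1.50 that stayed negative at -0.36 with centring and -0.62 after quantile normalization. The 25 members in the highest Comma-D class all fell with a median of -1.68, beside -1.23 and 85.3% lower for that class. The median of all genes of that class was -0.09 with centring and -0.44 after quantile normalization. Against the erbB2-negative fraction 21 of the 30 were lower and 0 higher, beside 21% lower and 35.2% higher over all genes. The shares for the highest Comma-D class were not computed in that comparison.

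The endoplasmic reticulum stress element, which is CCAAT and CCACG with 9 bases of any kind between them, is the site through which ATF6 is known to act with NF-Y. These letters, or on the other strand CGTGG and ATTGG with 9 bases between them, stand in the 250 bases before the start of 7 of the 27 list members that have a promoter in the RefSeq table, and in 37 of 32851 promoters (0.113%) or 20 of 15614 tested genes with a promoter (0.128%). The element is known from genes of this kind, so the match describes the list and tests nothing about these samples. Of the 7 promoters 3 are shown as examples of the match. They are given 5′ to 3′ on the gene's strand, the plus strand in each case, from GRCm38.p6, with the match in capitals. Dnajc3 and Pdia6 were chosen for this match after their values were seen.
Hspa5 promoter, chr2:34771840-34772089: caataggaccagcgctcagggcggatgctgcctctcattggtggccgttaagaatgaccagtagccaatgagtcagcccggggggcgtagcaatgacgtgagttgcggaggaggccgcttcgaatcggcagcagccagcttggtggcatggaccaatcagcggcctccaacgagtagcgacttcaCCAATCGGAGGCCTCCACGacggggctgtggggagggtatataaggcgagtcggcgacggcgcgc
Dnajc3 promoter, chr14:118937682-118937931: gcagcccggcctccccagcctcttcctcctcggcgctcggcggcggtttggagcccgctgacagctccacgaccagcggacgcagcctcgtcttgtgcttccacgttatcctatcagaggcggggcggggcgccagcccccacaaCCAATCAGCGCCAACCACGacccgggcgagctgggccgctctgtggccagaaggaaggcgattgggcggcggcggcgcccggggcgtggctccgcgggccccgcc
Pdia6 promoter, chr12:17266339-17266588: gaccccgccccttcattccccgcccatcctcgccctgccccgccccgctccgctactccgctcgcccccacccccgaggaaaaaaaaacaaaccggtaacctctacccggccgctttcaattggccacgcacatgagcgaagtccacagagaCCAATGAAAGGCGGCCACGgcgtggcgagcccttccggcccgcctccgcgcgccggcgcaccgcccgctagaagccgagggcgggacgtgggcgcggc

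Dnajc3, an inhibitor of the stress kinase PERK, had levels of 7.19, 7.46 and 7.23 in the fraction, against 9.40, 9.40 and 9.33 in Comma-D, and Pdia6, a disulfide isomerase, had 7.23, 7.73 and 7.95 against 9.52, 9.48 and 9.63. Both fell in every array, by 2.08 (SE 0.22) and 1.91 (SE 0.27).

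Anabolic and energy genes moved with them. Of 18 aminoacyl-tRNA synthetase genes 16 fell and 0 rose (median -1.41, or -0.27 centred and -0.59 after quantile normalization), among them Qars by 2.22 (SE 0.21) and Rars by 2.21 (SE 0.22). Of 25 cholesterol and fatty acid synthesis genes 20 fell and 3 rose (median -1.25, or -0.11 and -0.64). The desaturase Scd1 had levels of 8.91, 9.92 and 10.31 in the fraction, against 12.00, 11.97 and 12.03 in Comma-D, a difference of -2.29 (SE 0.27), while MMTV-neu averaged 6.15, so this gene stood between the lines. Fasn, fatty acid synthase, fell by 1.92 (SE 0.27) and the sterol enzyme Msmo1 by 2.04 (SE 0.43). Of 29 nuclear-encoded respiratory chain genes 25 fell and 1 rose (median -1.38, or -0.24 and -0.53), with Uqcrb of complex III at -2.45 (SE 0.32) and Ndufa9 of complex I at -2.36 (SE 0.31). Among the 27 genes of glycolysis and the hypoxia response 18 fell and 3 rose, with a median of -0.78 that centring turned to 0.36 and quantile normalization left at -0.32. Ldha, lactate dehydrogenase, and Aldoa, an aldolase, fell by 2.08 (SE 0.19) and 2.07 (SE 0.19). Within the highest Comma-D class the medians of these lists were -1.41, -1.58, -1.41 and -0.95, beside -1.23 for all its genes.

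Of 26 mitosis genes 10 fell and 0 rose, with a median of -0.61 that centring turned to 0.53 and quantile normalization left at -0.40. The share that fell was 38.5%, beside 32.5% of all genes. In the highest Comma-D class 4 of 9 mitosis genes fell, with a median of -0.74, beside 85.3% and -1.23 for all genes there. Anln, a scaffold of the cleavage furrow, fell by 1.91 (SE 0.49), and Mki67, a marker of cycling cells, fell by 1.56 (SE 0.48). Neither was called with centring, and Mki67 was not called after quantile normalization. Of 30 DNA replication genes 8 (26.7%) fell and 4 rose, with a median of -0.18 that turned to 0.96 with centring and 0.17 after quantile normalization. In the highest Comma-D class 6 of 9 of them fell, with a median of -0.69. By these medians, over 9 genes each, both lists fell less in that class than its genes as a whole. The sliding clamp Pcna fell by 2.03 (SE 0.33), while the uracil glycosylase Ung rose by 1.11 (SE 0.14). Replication-dependent histone genes, whose copies are alike, diverged: H4c3 had levels of 9.33, 9.60 and 9.85 in the fraction, against 7.60, 7.47 and 7.43 in Comma-D, a rise of 2.09 (SE 0.18), and H2bc4 had 6.00, 7.38 and 7.48 against 10.39, 10.16 and 10.30, a fall of 3.33 (SE 0.41). Of 10 measured 1 rose and 3 fell, with a median of -0.27 that centring turned to 0.87 and quantile normalization left at -0.43.

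Of 19 genes of cyclin D, the CDK inhibitors and the p53 response 13 fell and 3 rose, with a median of -0.99 that centring turned to 0.14 and quantile normalization left at -0.42. Of the 12 in the highest Comma-D class 11 fell, with a median of -1.38, beside -1.23 and 85.3% lower for that class. Ccnd1, cyclin D1, which ErbB2 signalling is known to require in mammary tumours, had levels of 9.42, 10.12 and 10.09 in the fraction, against 11.54, 11.56 and 11.62 in Comma-D. It fell by 1.70 (SE 0.21), and the p53 target Mdm2 by 2.08 (SE 0.23). Wnt and Notch genes gave 10 rises and 14 falls among 27, with a median of -0.72 that centring turned to 0.42 and quantile normalization left at -0.10. The 11 in the highest Comma-D class all fell, with a median of -1.55, and the 5 in the 2 lower classes all rose. Sfrp1, a secreted Wnt antagonist, fell by 2.30 (SE 0.23) and the receptor Notch2 by 1.83 (SE 0.14).

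Cytosolic ribosomal protein genes were lower by smaller amounts. Of 23 measured 19 fell and 2 rose, with a median of -0.62 that centring turned to 0.52 and quantile normalization left at -0.06. The 21 in the highest Comma-D class had a median of -0.68, beside -1.23. Rpl7 fell by 1.99 (SE 0.27). Rps14 rose by 1.82 (SE 0.16) on its brightest probe set but differed by -0.47 when its probe sets were averaged, so its direction is not settled, and near-identical pseudogenes can share its probes.

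Interferon-stimulated and antigen presentation genes were lower as well. Ddx58, the viral RNA sensor RIG-I, had levels of 7.51, 7.69 and 8.19 in the fraction, against 9.86, 9.82 and 9.80 in Comma-D, and fell by 2.03 (SE 0.19). The transcription factor Irf1 fell by 1.74 (SE 0.35) and Usp18, which restrains interferon signalling, by 1.38 (SE 0.23). Neither of these 2 was called with centring. Of 27 interferon-stimulated genes 19 fell and 3 rose, with a median of -0.90 that centring turned to 0.24 and quantile normalization left at -0.61. The 9 of them in the highest Comma-D class all fell, with a median of -1.28, beside -1.23 and 85.3% lower for that class. In the third class 39.4% of all genes were lower. B2m, which encodes beta-2-microglobulin and is needed for class I molecules at the cell surface, had levels of 9.55, 9.89 and 10.40 in the fraction, against 12.10, 12.06 and 12.06 in Comma-D and a mean of 5.76 in MMTV-neu. It fell by 2.13 (SE 0.20) and stood 4.18 (SE 0.20) above MMTV-neu. Among 15 class I genes 12 fell and 2 rose, with a median of -0.75 that centring turned to 0.39 and quantile normalization left at -0.64. Of the 8 in the highest Comma-D class 7 fell, with a median of -1.36. The transactivator Nlrc5 was among the risers, at 1.27 (SE 0.20).

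Genes known to respond quickly to handling, such as immediate early genes and heat shock chaperones, moved too. Of 28 genes 22 fell and 3 rose, with a median of -1.49, or -0.35 centred and -0.71 after quantile normalization. Its 22 members in the highest Comma-D class had a median of -1.90, beside -1.23. Dusp1, a phosphatase induced by stress, had levels of 8.95, 8.90 and 9.17 in the fraction, against 11.75, 11.83 and 11.79 in Comma-D, and fell by 2.79 (SE 0.11). The antiproliferative gene Btg2 fell by 2.71 (SE 0.32) and the AP-1 subunit Fosb by 2.61 (SE 0.29). The part of handling in the feedback genes Dusp6 and Errfi1 above was not tested.

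Markers of other cell types rose where they were low. Of 14 endothelial markers 13 rose and 0 fell (median 0.75), of 19 macrophage and leukocyte markers 16 rose and 2 fell (median 0.58), and of 10 adipocyte markers 7 rose and 1 fell (median 0.68). These medians stayed positive at 1.89, 1.72 and 1.82 with centring and at 0.32, 0.15 and 0.20 after quantile normalization. All genes of the lowest and the next Comma-D class had medians of 1.49 and 1.87 with centring and 0.04 and 0.25 after quantile normalization. The mean level of the endothelial list ran from 6.30 to 6.46 over the arrays of the fraction and from 5.68 to 5.72 in Comma-D. For macrophages and leukocytes it was 5.82 to 6.09 in the fraction and 5.47 to 5.49 in Comma-D, and for adipocytes 6.04 to 6.24 in the fraction and 5.61 to 5.65 in Comma-D. All these list means lay under the array medians, which averaged 6.69 in the fraction and 6.35 in Comma-D. The 12, 17 and 9 members in the 2 lower Comma-D classes had medians of 0.77, 0.65 and 0.76, beside 0.50 for all genes of both classes. Of these members 3, 10 and 2 lie in the lowest class, where the median of all genes was 0.35. The others lie in the next class, where it was 0.73, so the endothelial and adipocyte medians were close to that of genes of like level. The endothelial genes Plvap and Vwf rose by 1.05 (SE 0.13) and 0.95 (SE 0.14), the T cell receptor chain Cd3e by 1.69 (SE 0.16) and the complement chain C1qb by 0.97 (SE 0.17). Cd14, a coreceptor for bacterial lipopolysaccharide, fell by 2.32 (SE 0.19). The adipocyte regulator Pparg rose by 0.85 (SE 0.13), a call lost after quantile normalization, and Lpl, lipoprotein lipase, fell by 1.38 (SE 0.11), a call lost with centring. Of 15 fibroblast markers 5 rose and 6 fell (median 0.05, or 1.19 and 0.18). The part of such cells in the rises was not tested.

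**Figure D5:**
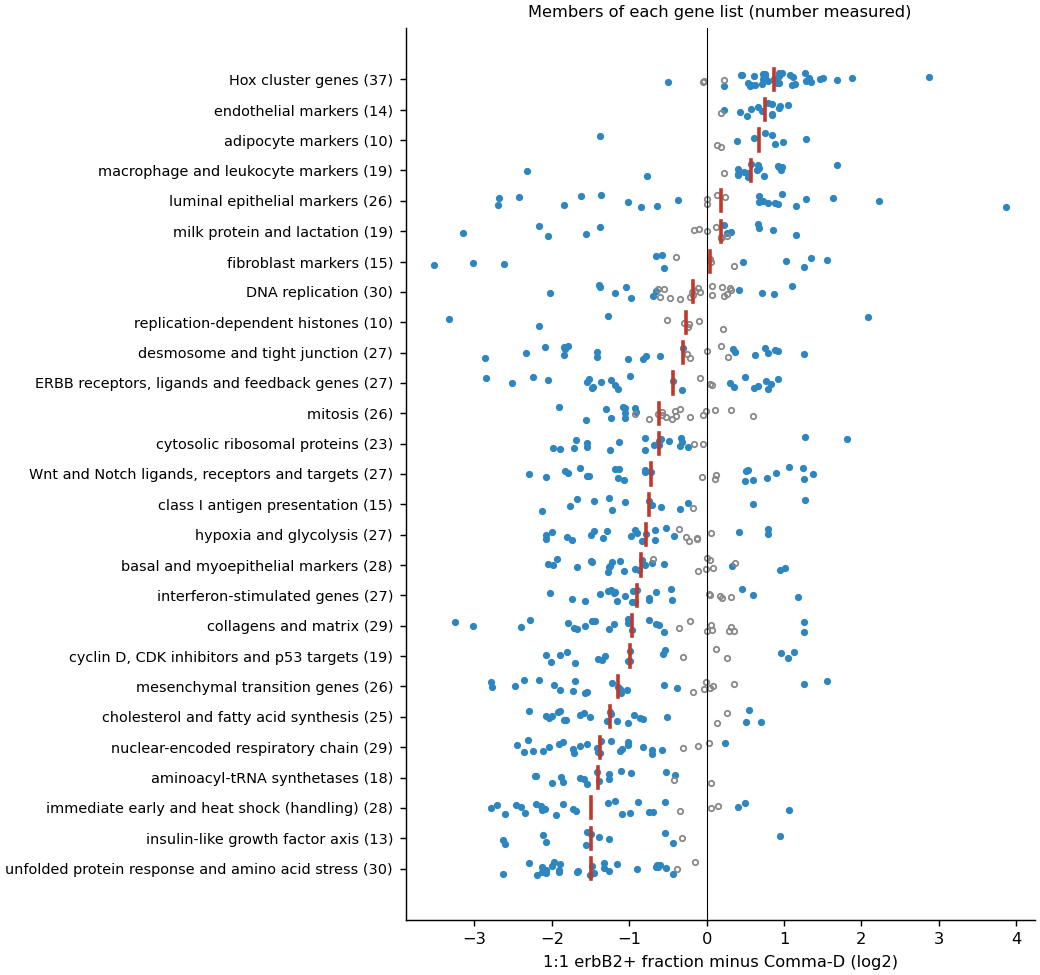
Difference of each member of 27 gene lists, 1:1 erbB2-positive fraction minus Comma-D (log2, horizontal axis), with the number measured beside each list, filled points for genes called at an adjusted p under 0.05, open points for the others and a red bar at the list median. The medians run from 0.87 for Hox genes to -1.50 for the unfolded protein response.

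Several falls from Comma-D had no counterpart between the sorted fractions of the 1:1 co-culture, but among large falls these were exceptions. Of the 845 genes called at least 2 log2 units below Comma-D, 808 were also called lower than in the erbB2-negative fraction, and 37 were not called. Dcn, the matrix proteoglycan decorin, had levels of 5.73, 5.37 and 5.26 in the erbB2-positive fraction, against 8.55, 8.54 and 8.35 in Comma-D, a difference of -3.02 (SE 0.16), while the erbB2-negative fraction was at 5.61, 5.16 and 4.96. The 2 fractions overlapped and differed by 0.21 (95% interval -0.12 to 0.55, adjusted p = 0.257). Igf2 likewise differed between the fractions by 0.15 (95% interval -0.14 to 0.44) and Kit by 0.15 (95% interval -0.38 to 0.68). The milk protein gene Csn3, with levels of 5.03, 4.89 and 4.84 in the erbB2-positive fraction against 6.87, 6.70 and 7.35 in Comma-D, fell by 2.05 (SE 0.14) and differed by 0.13 (SE 0.14) between the fractions. Ltf, which encodes lactoferrin, fell by 1.56 (SE 0.22), a call lost with centring, and differed by 0.26 (SE 0.22) between the fractions. By contrast Xdh, xanthine dehydrogenase, which is needed for milk fat secretion, fell by 3.15 (SE 0.21) and was lower than in the erbB2-negative fraction by -1.59 (SE 0.21). Of 19 milk and lactation genes 7 rose and 5 fell, with a median of 0.18 that turned to -0.13 after quantile normalization and was 1.32 with centring.

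Over all genes, the erbB2-positive minus the erbB2-negative fraction of the 1:1 co-culture gave 11195 calls (56.1%), of which 7017 (35.2%) were higher and 4178 (21%) lower. Differences of at least 1 log2 unit were called upward for 9 (0.0451%) and downward for 1617 (8.11%). Without erbB2-negative replicate 3 the calls numbered 6737. Basal markers accounted for 19 falls and 1 rise among 28, and luminal markers for 12 rises and 2 falls among 26, with Krt8 higher by 0.53 (SE 0.19) and Foxa1 by 0.78 (SE 0.21). The fraction minus MMTV-neu gave 3658 calls (18.3%), 840 (4.21%) higher and 2818 (14.1%) lower, with 389 (1.95%) higher and 2 (0.01%) lower by at least 1 log2 unit. The calls numbered 1814 without replicate 2 and 1362 without replicate 3 of the fraction. Line and medium differ together in that comparison. The fraction minus the 1:50 erbB2-positive fraction gave 14240 calls (71.4%), 8774 (44%) higher and 5466 (27.4%) lower, among them Krt8 at 0.92, Hoxc10 at 2.26 and Epcam at -2.20. All these comparisons use the same 3 arrays of the 1:1 erbB2-positive fraction, so their results are not independent of each other.

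The fraction lay outside both unmixed lines at few genes. It was called above both at 10 genes (0.0502%) and below both at 164 (0.823%). Anp32a, a nuclear phosphatase inhibitor, had levels of 9.26, 9.29 and 9.64 in the fraction, against 8.38, 8.67 and 7.81 in Comma-D, a difference of 1.11 (SE 0.22), and was 0.78 (SE 0.22) above MMTV-neu. Rps3a1, a ribosomal protein gene, differed by 0.68 (SE 0.24), a call lost without replicate 1 of the fraction (0.57) or replicate 2 of Comma-D (0.58), the homeobox gene Rhox9 by 1.23 (SE 0.15) and the interferon gene Ifna2 by 1.29 (SE 0.10). Against MMTV-neu these 3 differed by 0.90, 0.47 and 0.39. On the other side, Lhfpl2 had levels of 6.89, 7.03 and 7.03, against 8.94, 8.63 and 8.91 in Comma-D, a difference of -1.84 (SE 0.13), and lay 0.73 (SE 0.13) below MMTV-neu. Gpbp1 differed by -1.19 (SE 0.22), Hacd4, an enzyme of very long fatty acid synthesis, by -1.34 (SE 0.24), and Ypel3 by -1.17 (SE 0.22), and none of these 3 calls held with centring. Against MMTV-neu they lay at -0.91, -0.72 and -0.72.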

How the data were processed

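RNA of 18 samples in 6 groups of 3 was hybridised to mouse whole-transcript gene arrays. Per the submitters' processing notes, RMA, R 3.1.2 and limma were used, and the values deposited by the authors are log2 intensities. Filters and the handling of control probes were not stated there. The deposited arrays do not share 1 distribution, with medians over probe sets of 6.01 to 6.48 and standard deviations of 1.51 to 1.99. The reason for this was not tested. The table holds 1 column per array and no missing values, and arrays give no read depth, so their number limits the precision.

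The platform annotation lists 23410 of the 35556 probe sets and leaves 12146 unnamed here. It pairs 21789 with exactly 1 gene, and the 1621 with several genes were dropped. Of those kept, 21698 were found in the RefSeq gene table (GRCm38.p6), and no symbol needed updating. Where a gene had several probe sets, the brightest by mean over all 18 arrays stood for it, which left 19938 genes, and low values were not filtered. A linear model with a mean per group was fitted to the 18 arrays by limma 3.58.1 under R 4.3.3 with eBayes moderation (12 residual degrees of freedom). All limma p-values are two-sided and adjusted by Benjamini-Hochberg over all genes. The permutation p-values of the axis positions are two-sided, exact and not adjusted. The fit was tested on simulated data. Axis positions project an array onto the vector between the means of the unmixed lines.

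The comparison, the gene lists and the rule for named genes were chosen with earlier results of these data known. By that rule the text may name, among called genes whose arrays do not overlap, the 15 largest differences each way, the 5 largest of each list, the 6 farthest above and below both lines, and always Krt5, Krt8, Krt14, Krt18, Erbb2, Erbb3, Egfr, Actb, Eef1a1, Cdh1 and Vim. Krt19, Trp63 and Acta2 come from the list of cell type markers. Mcm7, Hoxb2, Dnajc3, Pdia6, Spry4, Dusp5 and the microRNA genes other than Mir25 and Mir421 were chosen after their values were seen. From this pool genes with a known function were preferred. Alternatives were dropping the 40% of genes with the lowest means, averaging probe sets, a trend and robust prior, weights per array, quantile normalization, centring each array on 11 reference genes, a fit of the compared groups only, a fit without MMTV-neu, a block for the replicate number, stricter thresholds and fits without single arrays. Reference genes for centring themselves differed by a median of -1.13 in the 1:1 erbB2-positive fraction minus Comma-D, with 9 of 11 lower. Deviations of the 1:1 erbB2-positive arrays from their group means were correlated with those of the other groups. With the 1:1 erbB2-negative fraction r was 0.218 to 0.628 at equal replicate numbers and -0.615 to 0.438 at unequal ones. With the 1:50 erbB2-positive fraction it was 0.148 to 0.515 and -0.510 to 0.398. These ranges overlap, so pairing by number is not settled. At equal numbers r was -0.039 to 0.094 with Comma-D and -0.109 to -0.000 with MMTV-neu. No 2 arrays were duplicates, since the most similar pair differed by up to 0.84 at a gene.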

Additional observations from a re-analysis of the deposited data

Results flagged for a closer look

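The erbB2-positive fractions of the 1:1 and the 1:50 co-cultures differed from each other, and hence in their difference from Comma-D, at 14240 of 19938 genes (71.4%) by limma at an adjusted p under 0.05. Both differences use the same Comma-D arrays, so the direct contrast of the 2 fractions is the test. The median of all genes in it was 0.19, and 61.6% of the calls were higher in the 1:1 fraction. Without the 40% of genes with the lowest means, the median was -0.22 and 39.4% of the calls were higher. The part of the proportion of the 2 lines in each fraction was not tested. Leaving out single arrays gave 11979 to 14349 calls.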

How the results depend on the processing

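Against Comma-D, the 1:1 erbB2-positive fraction gave 15615 calls, 14400 to 15398 without single arrays, 9683 when the lowest 40% of genes were dropped and 5614 at 1 log2 unit or more. Centring on reference genes gave 17208 calls, of which 88.8% were higher instead of 58.5%, with the median of all genes at 1.33 instead of 0.19, and quantile normalization gave 11369, of which 9426 were among the calls on the deposited values. Among the 9683 calls 36.9% were higher, and after quantile normalization 53.5%. The minus erbB2-negative comparison, with 11195 calls, gave 7167 without the lowest 40%, 16899 with array weights, 7455 after quantile normalization, 6904 with the compared groups only, 7049 at an adjusted p under 0.01, 1626 at 1 log2 unit or more and 6737 to 13221 without single arrays, the lowest without erbB2-negative replicate 3. Its share of higher calls was 62.7%, or 92.9% with centring, 43.1% without the lowest 40% and 0.554% at 1 log2 unit or more. The minus MMTV-neu comparison, with 3658 calls, gave 1127 without the lowest 40%, 5926 with array weights, 19174 with centring, 793 with the compared groups only, 1158 at an adjusted p under 0.01, 391 at 1 log2 unit or more and 1362 to 4387 without single arrays, with 1814 without replicate 2 and 1362 without replicate 3 of the fraction. Its share of higher calls was 23%, or 1.09% with centring, 42.6% after quantile normalization, 63.1% without the lowest 40%, 71% with the compared groups only and 99.5% at 1 log2 unit or more. The minus 1:50 erbB2-positive comparison, with 14240 calls, gave 8666 without the lowest 40%, 9363 after quantile normalization, 3127 at 1 log2 unit or more and 11979 to 14349 without single arrays, and its share of higher calls was 61.6%, or 90.7% with centring, 39.4% without the lowest 40% and 16.8% at 1 log2 unit or more. With a replicate block the 4 comparisons, in the order above, gave 15810, 11850, 4574 and 14564 calls, each within 1.5 times. The array weights stopped before full convergence, and the fit without MMTV-neu could not be run for the comparison with that line.

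Of 1879 pairs of a text gene and an alternative, 1832 kept their side of the threshold, 31 kept direction but lost the call, and 16 changed sign with a call in at least 1 of the fits. Among the 1832 were 5 of Krt5 or Trp63, called in neither fit, whose sign differed. With centring the sign turned for Erbb2 (0.81), Krt18 (0.29), Krt5 (1.03), Trp63 (1.12), Acta2 (0.22), Hoxb2 (0.64), Vim (0.04), Mcm7 (0.45), Actb (0.53) and Eef1a1 (0.68). After quantile normalization it turned for Erbb2 (0.32), Krt18 (0.11), Krt5 (0.92), Trp63 (0.72), Hoxb2 (0.12) and Mcm7 (0.20), and with averaged probe sets for Rps14 (-0.47). Of the 28 list medians, centring turned 14: basal markers to 0.29, ERBB genes to 0.71, matrix to 0.17, hypoxia and glycolysis to 0.36, interferon-stimulated genes to 0.24, class I to 0.39, mitosis to 0.53, DNA replication to 0.96, ribosomal proteins to 0.52, desmosome and tight junction genes to 0.84, histones to 0.87, Wnt and Notch to 0.42, cyclin D and p53 genes to 0.14, and the reference genes to 0.01. Quantile normalization turned 2, DNA replication to 0.17 and milk genes to -0.13. Centring adds 1 amount per array to every gene, and the cause of the other changes was not tested.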
